A study of Mus musculus with 7 samples.

Results

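The genes described here are 42 genes of the contractile and metabolic apparatus of skeletal muscle, which were looked up by symbol in count files of mouse femoral cortical bone. All 42 were found among the 27179 genes of the files, and all 42 passed the filter on low counts. Of these, 13 encode isoforms typical of fast fibres, 9 encode isoforms typical of slow fibres, and 20 were assigned to neither class.

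Skeletal muscle contracts through the sarcomere, a repeating unit in which myosin thick filaments pull on actin thin filaments that are anchored at the Z-disc. Calcium released from the sarcoplasmic reticulum acts on the troponin complex of the thin filament and starts the pull, and creatine kinase and glycolysis supply the ATP. Mammalian muscle fibres are fast or slow, and each class uses its own isoforms of myosin, troponin and the calcium pump, so that a transcript profile of muscle carries a record of its fibre make-up.

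RNA was sequenced from femora of 12-week-old female C57BL/6 mice, from which the ends had been cut and the marrow flushed. There were 3 libraries labelled Dmp1Cre.EfnB2f/f, which carry Dmp1Cre and a floxed Efnb2 gene, and 4 libraries labelled Dmp1Cre, the controls, which carry the same Cre transgene without the floxed alleles. Dmp1Cre is driven by a promoter region of Dmp1, a gene of osteocytes and late osteoblasts, so the deletion is aimed at those cells. Activity of this kind of Cre in skeletal muscle fibres has been described as well. The labels also name the parents of each mouse: the first 2 libraries of the floxed genotype came from cross 76x78, controls 1 and 2 from 85x87, control 4 from 84x86, and library 3 of each genotype from 47x42. Only the last cross holds both genotypes, so for the other libraries the cross and the genotype cannot be told apart.

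Total counts ranged from 17245556 to 22075778 per library. The targeted gene Efnb2 went against the labels, with 322, 239 and 224 counts under the label Dmp1Cre.EfnB2f/f and 164, 139, 110 and 117 under the label Dmp1Cre (log2 fold change 0.96, SE 0.21, adjusted p = 0.511, edgeR quasi-likelihood test). These are counts over the whole gene in bone that holds other cells too, and they do not show whether the floxed part was removed in osteocytes. The study examined this separately by PCR of the targeted part, on osteocytes sorted from mice that also carried a fluorescent label. It reported effective targeting of Efnb2 in those osteocytes. Below, the libraries are called by their label alone, as Dmp1Cre.EfnB2f/f-labelled libraries 1 to 3 (or libraries 1 to 3) and controls 1 to 4, and values are given in that order. Bone is the labelled tissue, and the summed level of 12 osteocyte and osteoblast genes, in CPM (counts scaled to the size of the library), was 8531 to 14183 in the Dmp1Cre.EfnB2f/f-labelled libraries and 8351 to 41252 in the controls. Most of this sum was Col1a1, at 7010 to 12729 CPM in the Dmp1Cre.EfnB2f/f-labelled libraries and 7160 to 38291 CPM in the controls.

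To show what the regulatory sequence of these genes looks like, the 250 bases before the annotated start are given for 5 of them. Acta1 and Ckm serve in every fibre class, Myh4 and Tnnc2 belong to fast fibres and Tnnc1 to slow fibres. The sequences are the RefSeq sequence of build GRCm38.p6, read 5′ to 3′ on the strand of the gene. Capitals mark matches on either strand to the E-boxes CAGCTG and CACCTG, to the M-CAT element CATTCC, to the TATA box TATAAA, to the CArG box and to the MEF2 site, which are motifs known from muscle promoters. Acta1 lies at chr8:123894776-123895025 on the minus strand, Ckm at chr7:19410844-19411093 on the plus strand and Myh4 at chr11:67237562-67237811 on the plus strand. Tnnc2 lies at chr2:164779735-164779984 on the minus strand and Tnnc1 at chr14:31208062-31208311 on the plus strand.
Acta1: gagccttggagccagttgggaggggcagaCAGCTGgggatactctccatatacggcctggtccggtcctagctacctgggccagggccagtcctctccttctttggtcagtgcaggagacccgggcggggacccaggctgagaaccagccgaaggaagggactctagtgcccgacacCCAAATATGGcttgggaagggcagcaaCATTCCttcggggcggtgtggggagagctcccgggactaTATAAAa
Ckm: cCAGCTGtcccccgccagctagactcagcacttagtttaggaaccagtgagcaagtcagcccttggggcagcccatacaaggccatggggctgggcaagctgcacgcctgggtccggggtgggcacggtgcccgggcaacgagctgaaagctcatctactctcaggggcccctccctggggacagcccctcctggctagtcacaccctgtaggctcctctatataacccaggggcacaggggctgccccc
Myh4: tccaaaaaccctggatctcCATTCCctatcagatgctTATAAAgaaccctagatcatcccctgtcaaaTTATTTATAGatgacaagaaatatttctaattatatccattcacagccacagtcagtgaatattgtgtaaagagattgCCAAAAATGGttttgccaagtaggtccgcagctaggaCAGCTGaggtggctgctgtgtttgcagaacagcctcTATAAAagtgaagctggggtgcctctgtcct
Tnnc2: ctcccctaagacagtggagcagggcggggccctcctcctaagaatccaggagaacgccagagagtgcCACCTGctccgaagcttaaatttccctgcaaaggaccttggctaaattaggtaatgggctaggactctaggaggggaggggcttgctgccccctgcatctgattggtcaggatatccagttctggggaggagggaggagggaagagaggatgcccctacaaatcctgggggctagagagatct
Tnnc1: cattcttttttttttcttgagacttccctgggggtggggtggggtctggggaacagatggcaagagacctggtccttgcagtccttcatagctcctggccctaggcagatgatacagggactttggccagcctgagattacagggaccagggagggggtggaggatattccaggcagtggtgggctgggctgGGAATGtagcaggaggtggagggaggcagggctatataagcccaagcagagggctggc

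In the Acta1 sequence the E-box begins 221 bases, the CArG box 73 bases and the M-CAT element 46 bases before the start. Myh4 holds a CArG box 104 bases and an E-box 67 bases before its start, and 1 of its 3 TATAAA matches overlaps the MEF2 site that begins 182 bases before the start. The capitals in Tnnc1 mark an M-CAT element read on the other strand. Sequence was found for 33 of the 42 genes, which have 40 annotated starts between them. The E-box CAGCTG stood in 45% of these 40 windows and in 13% of all 32851 windows of the same length in the table. The MEF2 site stood in 17.5% against 2.92%, the CArG box in 12.5% against 1.47% and the M-CAT element in 27.5% against 12.6%. CACCTG (22.5% against 17.2%) and TATAAA (15.0% against 12.4%) were closer to all windows. A match describes the letters in this window and says nothing about binding.

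The 42 genes were a visible share of the RNA of these bones. Together they took 7.74%, 8.81% and 6.91% of all counts in Dmp1Cre.EfnB2f/f-labelled libraries 1, 2 and 3, and 3.10%, 3.24%, 6.96% and 2.40% in controls 1 to 4. The mean was 7.82% ± 0.950 (SD, n = 3) against 3.92% ± 2.05 (SD, n = 4). Control 3 stood among the Dmp1Cre.EfnB2f/f-labelled libraries, level with library 3 of that label, which comes from the same cross, and the other 3 controls lay below all of them. Titin (Ttn), the giant spring protein that runs from the Z-disc to the middle of the sarcomere and has a summed exon length of 104320 bases, alone took 0.376% to 2.89% of all counts. Without it the share was 5.48% ± 0.756 against 2.86% ± 1.25. In bulk bone, fewer muscle cells and less RNA per muscle cell cannot be told apart.

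**Figure D1:**
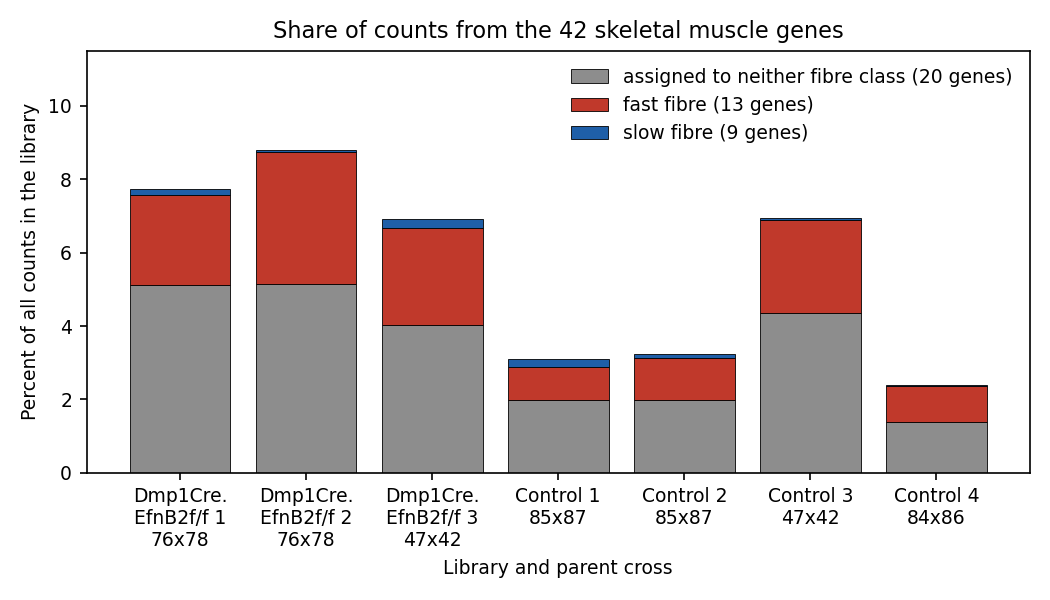
Share of all counts in each library (vertical axis, percent) taken by the 42 genes, split into 20 genes of neither fibre class (grey), 13 fast (red) and 9 slow (blue), for the 7 libraries with their parent cross. Control 3 reaches 6.96%, the level of Dmp1Cre.EfnB2f/f-labelled library 3 from the same cross (6.91%), while controls 1, 2 and 4 stay at or below 3.24%.

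The comparison of the genotypes asked whether Dmp1Cre.EfnB2f/f-labelled bones differed from the controls in these transcripts. Directions are given by label, and the whole-gene counts of Efnb2 went against the labels. The fitted log2 fold change was above 0 for 42 of 42 genes, where 51.3% of all 15098 genes tested were above 0. It ranged from 0.09 for Mb to 1.47 for Myh4, with a median of 0.67 over the 42 genes and of 0.01 over all genes tested. No gene of the series passed an adjusted p of 0.05 in the edgeR quasi-likelihood test (0% called), so 0 of the 42 did, with adjusted p between 0.511 and 0.921. Over all genes 1459 had an unadjusted p under 0.05, and DESeq2 called 72 genes, 0 of them among the 42. At an unadjusted p under 0.05, 13 of the 42 genes were higher in the Dmp1Cre.EfnB2f/f-labelled libraries, beside 4.63% of all genes tested. These 13 were Ldb3, Myot, Myoz1, Ryr1, Ckm, Pygm, Tpm1, Myh4, Myl1, Mybpc2, Tnni2, Tnnc2 and Tnnt3. The genes share their libraries, so the 42 values are not 42 independent observations.

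Control 3 decided much of this count. Without it, 28 of the 42 genes had an unadjusted p under 0.05 and a median log2 fold change of 0.95, beside 1108 of the 15098 genes tested that were higher at that p. Without Dmp1Cre.EfnB2f/f-labelled library 2 the count was 0, beside 325 of the 15098 genes, and without control 2 it was 0, beside 623 genes. It was 14 without Dmp1Cre.EfnB2f/f-labelled library 1, beside 277 genes, and 4 without Dmp1Cre.EfnB2f/f-labelled library 3, beside 700 genes. Without control 1 it was 4, beside 1098 genes, and without control 4 it was 5, beside 482 genes. No setting of the leave-one-out fits brought any of the 42 past the adjusted threshold. The limma pipeline after the study's methods had quality weights for the libraries but not the study's block on the day. It called 22 of the 42 genes, all higher, of which 10 were fast and 0 were slow isoforms. The same pipeline called 7.49% of all genes higher. Without the weights it called 0 genes in all, with 23 of the 42 genes higher at an unadjusted p under 0.05, beside 657 of the 15098 genes.

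Within the cross that holds both genotypes, Dmp1Cre.EfnB2f/f-labelled library 3 was above control 3 for 33 of the 42 genes, beside 50.6% of all genes tested. The median ratio was 1.10 over the 42 genes, 1.07 over the 13 fast genes and 11.0 over the 9 slow genes. This is 1 library against 1 library and has no replicate check. Whether both were collected on the same day is not known. The fast genes had a median fitted log2 fold change of 0.83, the genes of neither class of 0.72 and the slow genes of 0.52, with a median SE of 0.86 for the slow genes. The slow median became -0.20 under the limma pipeline with weights, in which 33 of the 42 genes stayed above 0, and -0.09 without library 3.

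**Figure D2:**
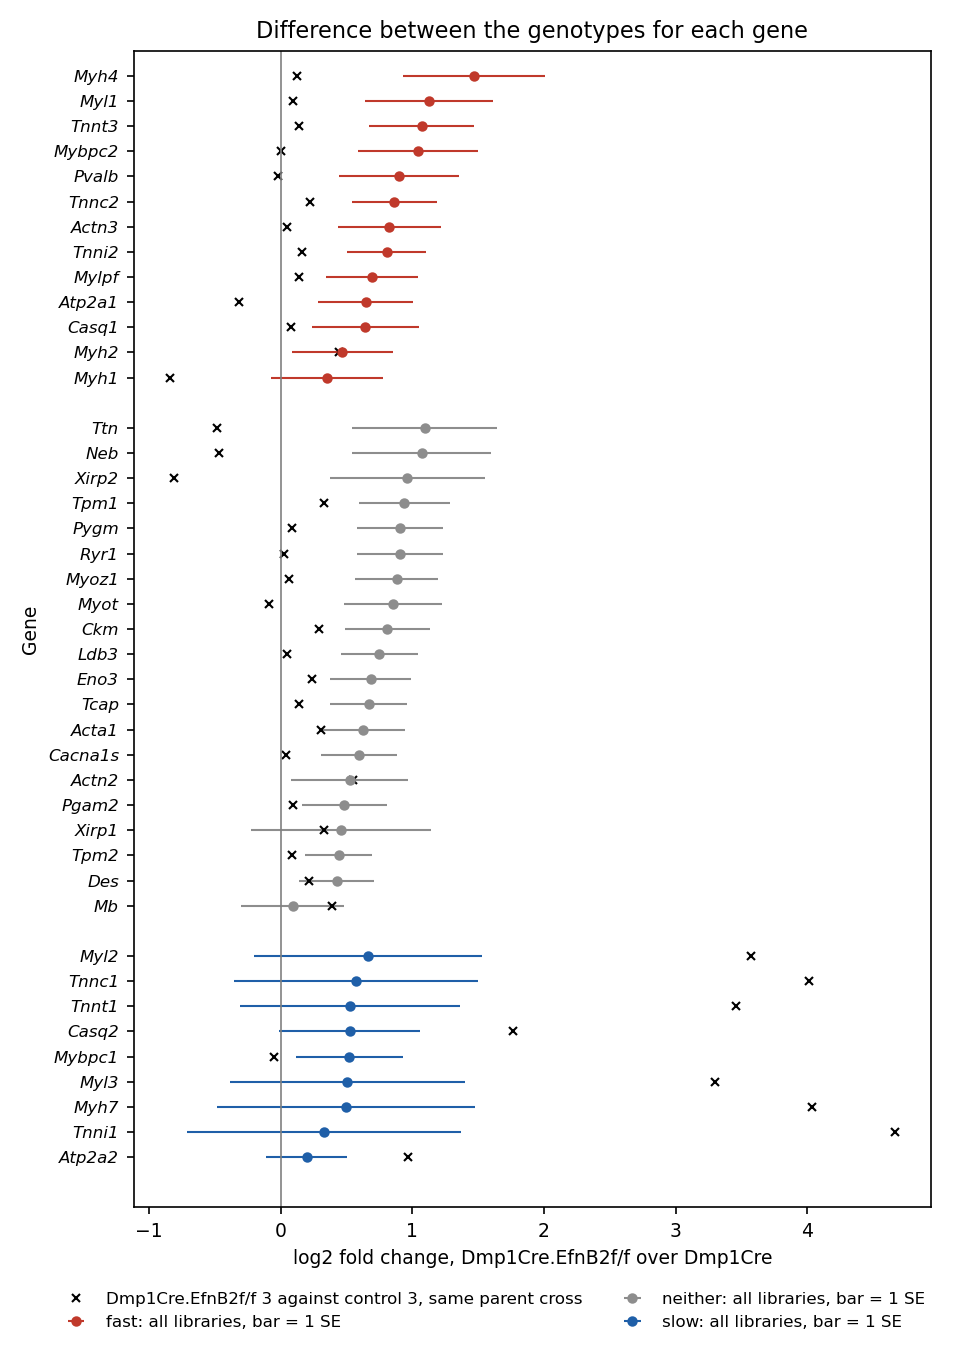
Fitted log2 fold change (horizontal axis, circles with bars of 1 SE) of each of the 42 genes between Dmp1Cre.EfnB2f/f-labelled libraries 1 to 3 and the 4 controls, with crosses for library 3 against control 3 of the same parent cross. All circles lie above 0, from 0.09 to 1.47, while most crosses of fast genes lie near 0 and 8 of 9 crosses of slow genes lie above it.

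The 42 genes did not follow 1 pattern over the 7 libraries. For 12 of the 13 fast genes and 16 of the 20 genes of neither class, the 3 lowest libraries were controls 1, 2 and 4. This held for 0 of the 9 slow genes. For 8 of the 9 slow genes the 2 highest libraries were Dmp1Cre.EfnB2f/f-labelled library 3 and control 1, and control 3 was the lowest library for 7 of the 9. The level in the highest library was 3.25 times that in the lowest at the median of the fast genes and 11.2 times at the median of the slow genes, beside 1.97 times for all genes above 0 in every library.

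**Figure D3:**
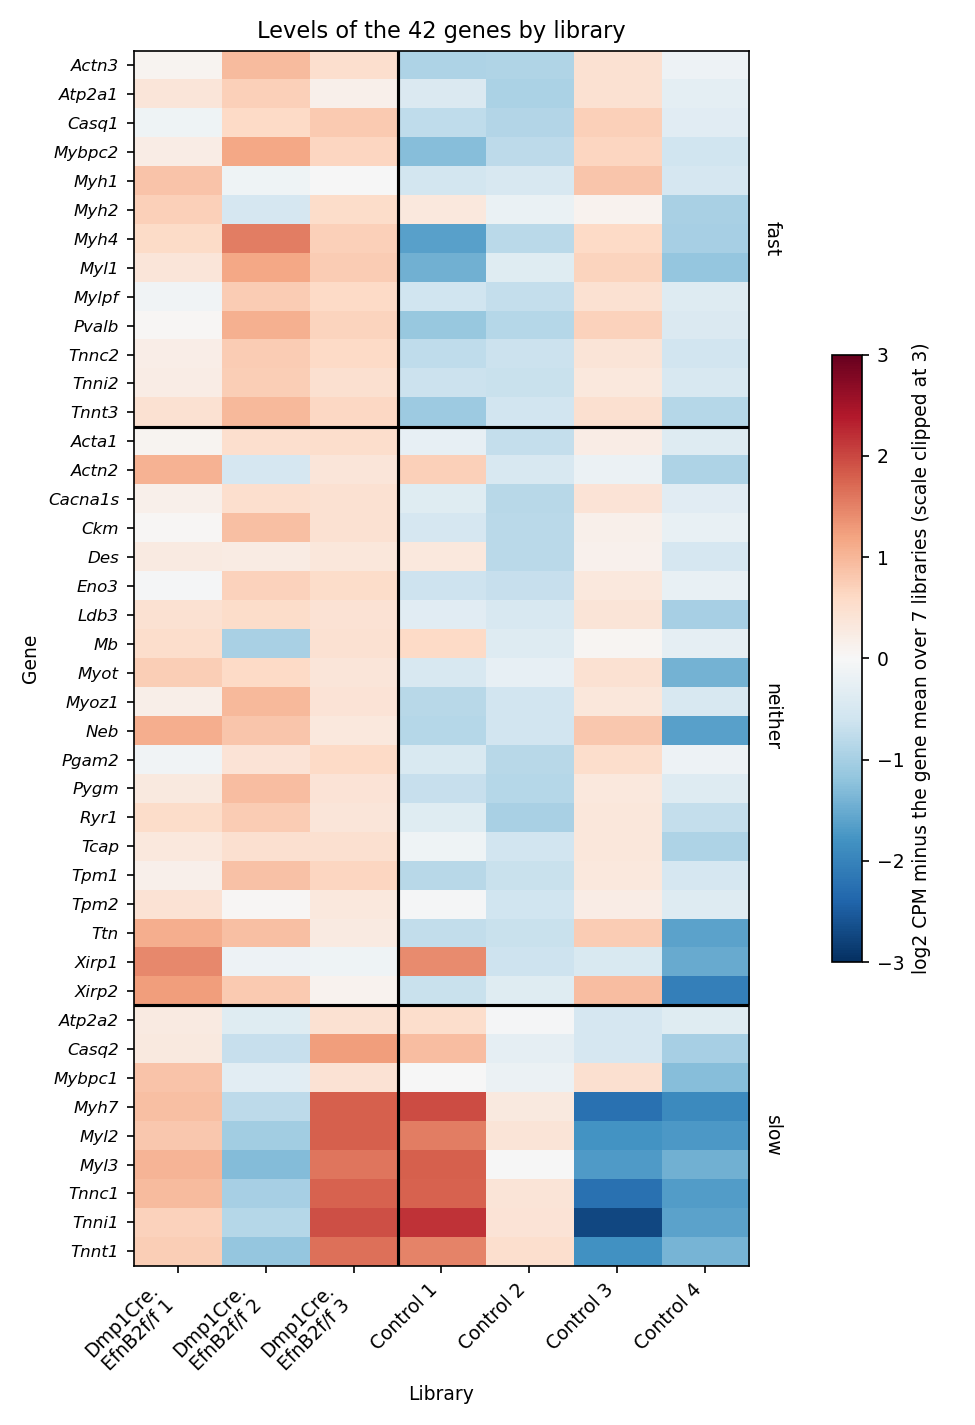
Level of each of the 42 genes (rows) in the 7 libraries (columns), as log2 CPM minus the mean of the gene over the libraries, grouped into fast, neither and slow. Red is above and blue is below the mean of the gene. The fast block is mostly blue in controls 1, 2 and 4, whereas most slow genes are red in Dmp1Cre.EfnB2f/f-labelled library 3 and control 1 and blue in controls 3 and 4.

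The thick filament genes showed this split within 1 family. Myh4 encodes the myosin heavy chain of the fastest (IIb) fibres and lies at chr11:67237812-67260447 in mm10, in a cluster with Myh2 and Myh1. Its level was 8409.5, 16434 and 9257 CPM in Dmp1Cre.EfnB2f/f-labelled libraries 1 to 3, 1836, 3217, 8515 and 2853 CPM in the 4 controls, and it had the highest fold change of the 42 genes (log2 fold change 1.47, SE 0.54, unadjusted p = 0.025, adjusted p = 0.511, edgeR). Library 2 was the highest and control 1 the lowest, and the groups overlapped through control 3. Myh7, the heavy chain of slow and cardiac muscle at chr14:54970684-54994626, was at 390.1, 121 and 725 CPM in libraries 1 to 3 and 814, 256, 44.1 and 55.4 CPM in the controls (log2 fold change 0.50, SE 0.98, adjusted p = 0.822). Here control 1 was the highest and control 3 the lowest, so that the same 2 controls stood at opposite ends for Myh4 and Myh7.

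The other adult fast heavy chains differed from Myh4. Myh1, the IIx chain, was at 2325, 1182 and 1273 CPM in libraries 1 to 3 and 884, 929, 2284 and 906 CPM in the controls (log2 fold change 0.35, SE 0.42, adjusted p = 0.716). Library 1 and control 3 were about equal and stood well above the other 5 libraries. Myh2, the IIa chain of fast oxidative fibres, was at 1716, 729 and 1524 CPM in libraries 1 to 3 and 1284, 901, 1119 and 528 CPM in the controls (log2 fold change 0.47, SE 0.38, adjusted p = 0.611), with control 1 the highest control. Myh2 was the 1 fast gene for which controls 1, 2 and 4 were not the lowest libraries, since library 2 lay below controls 1 and 2.

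Of the counts of these 4 adult heavy chain genes, whose summed exon lengths lie between 6016 and 6083 bases, Myh7 took 3.02%, 0.653% and 5.65% in the Dmp1Cre.EfnB2f/f-labelled libraries and 16.9%, 4.82%, 0.367% and 1.27% in controls 1 to 4. Myh4 took the largest share in all 7 libraries, from 38.3% in control 1 to 89.0% in library 2. Control 1 had the most even mix, with 26.5% from Myh2 and 18.4% from Myh1. Of all 100-base stretches of the Myh1 transcript, 14.7% also stand in another gene, as do 11.2% for Myh2, 3.85% for Myh4 and 13.9% for Myh7. For Myh7, 11.2% stand in the cardiac gene Myh6. Reads from those stretches could be split between the copies or lost. Of the 42 genes, 24 share no such stretch, and the other genes above 5% are Mb, Tnnc2, Atp2a1 (14.0%, with Rabep2), Cacna1s (13.5%), Myl1 (9.36%) and Ckm (6.24%).

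The light chains and binding proteins of myosin were divided in the same way. Myl1, the fast essential light chain, was at 569.5, 992 and 753 CPM in libraries 1 to 3 and 163, 344, 707 and 199.98 CPM in the controls (log2 fold change 1.13, SE 0.49, unadjusted p = 0.047, adjusted p = 0.511), lowest in controls 1 and 4. Mylpf, the fast regulatory light chain, was at 912, 1669 and 1492 CPM in libraries 1 to 3 and 651, 598, 1358 and 749 CPM in the controls (log2 fold change 0.69, SE 0.35, adjusted p = 0.517). In both, control 3 lay inside the range of the Dmp1Cre.EfnB2f/f-labelled libraries and the other controls below it.

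The slow regulatory light chain gene Myl2 was at 119, 32.9 and 233 CPM in libraries 1 to 3 and 195, 88.8, 19.6 and 20.6 CPM in the controls (log2 fold change 0.66, SE 0.86, adjusted p = 0.732). Myl3, the slow essential light chain, was at 148, 29.6 and 221 CPM in libraries 1 to 3 and 253, 72.4, 22.5 and 26.7 CPM in the controls (log2 fold change 0.51, SE 0.89, adjusted p = 0.801). Library 3 and control 1 were the highest for both, and controls 3 and 4 with library 2 the lowest, so that each genotype spanned nearly the whole range.

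Myosin binding protein C steadies the thick filament. Its fast gene Mybpc2 was at 769, 1472 and 1028 CPM in libraries 1 to 3 and 270.5, 379, 1029 and 433 CPM in the controls (log2 fold change 1.05, SE 0.46, unadjusted p = 0.049, adjusted p = 0.511). Its slow gene Mybpc1 was at 529, 234 and 393 CPM in libraries 1 to 3 and 289, 257, 407 and 121 CPM in the controls (log2 fold change 0.52, SE 0.41, adjusted p = 0.592). Mybpc1 was the slow gene that did not have library 3 and control 1 on top: its highest libraries were library 1 and control 3, and its fold over the libraries was 4.37.

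The thin filament is built of actin and tropomyosin with the troponin complex. Acta1, skeletal alpha actin, had the highest level per length of the 42 genes, a mean of 3726 CPM per kilobase over the 7 libraries, ahead of Tnnt3 with 1823, Ckm with 1566 and Tnni2 with 1476. Its level was 5389, 7282 and 7387 CPM in libraries 1 to 3 and 4299.6, 3116, 5979 and 3927 CPM in the controls (log2 fold change 0.63, SE 0.31, adjusted p = 0.517), with controls 1, 2 and 4 lowest. Nebulin (Neb), a ruler protein of the thin filament, was at 4070.1, 3404 and 2388 CPM in libraries 1 to 3 and 1051, 1286, 3312 and 615 CPM in the controls (log2 fold change 1.07, SE 0.53, adjusted p = 0.517). Neb was highest in library 1 and lowest in control 4, and control 3 was above library 3. Tropomyosin covers the actin sites to which myosin binds, and Tpm1 (1226 to 4004 CPM, log2 fold change 0.94, SE 0.34, unadjusted p = 0.023, adjusted p = 0.511) had a larger fold change than Tpm2 (573 to 1186 CPM, log2 fold change 0.44, SE 0.26, adjusted p = 0.526), a difference that was not tested.

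The troponin complex allows the same comparison 3 times, since each of its subunits has a fast and a slow gene. The fast calcium sensor Tnnc2, whose upstream sequence is shown above, was at 919, 1362 and 1211 CPM in libraries 1 to 3 and 471, 512, 1041 and 540.0 CPM in the controls (log2 fold change 0.86, SE 0.32, unadjusted p = 0.027, adjusted p = 0.511). Its slow counterpart Tnnc1 was at 56.3, 14.7 and 99.99 CPM in libraries 1 to 3 and 99.95, 37.8, 6.21 and 9.18 CPM in the controls (log2 fold change 0.57, SE 0.93, adjusted p = 0.784). Controls 1, 2 and 4 were the 3 lowest for Tnnc2, whereas for Tnnc1 control 1 was level with the highest library and control 3 was the lowest. Of the Tnnc2 transcript, 25.6% of 100-base stretches also stand in a transcript of Ube2c.

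Troponin I holds the filament off when calcium is low. Tnni2, the fast gene, was at 1073, 1546 and 1288 CPM in libraries 1 to 3 and 593, 579, 1149 and 663 CPM in the controls (log2 fold change 0.80, SE 0.30, unadjusted p = 0.026, adjusted p = 0.511). Tnni1, the slow gene, was at 48.8, 16.6 and 114 CPM in libraries 1 to 3 and 136, 40.3, 4.51 and 9.84 CPM in the controls (log2 fold change 0.33, SE 1.04, adjusted p = 0.891). Tnni2 differed by 2.67 times between its highest and lowest library, while Tnni1 differed by 30.2 times, the widest span of the 42 genes, and both of its extremes were controls (1 and 3).

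Troponin T ties the complex to tropomyosin. Tnnt3, the fast gene, was at 2466, 3525 and 2765 CPM in libraries 1 to 3 and 842, 1201, 2517 and 992 CPM in the controls (log2 fold change 1.07, SE 0.40, unadjusted p = 0.026, adjusted p = 0.511). Tnnt1, the slow gene, was at 81.3, 21.99 and 153 CPM in libraries 1 to 3 and 136, 68.9, 13.9 and 18.4 CPM in the controls (log2 fold change 0.52, SE 0.83, adjusted p = 0.780). As for the other subunits, the fast gene separated control 3 from the other controls and the slow gene had control 1 on top of the controls.

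Among the Z-disc, titin and cytoskeleton genes, Ldb3, which encodes a scaffold of the Z-disc (ZASP or Cypher), was at 311, 332 and 305 CPM in libraries 1 to 3 and 179.9, 163, 295 and 114 CPM in the controls (log2 fold change 0.75, SE 0.29, unadjusted p = 0.032, adjusted p = 0.511). It and Ryr1 were the 2 of the 42 genes whose groups did not overlap, beside 5.05% of all genes tested that were higher in this way. The gap for Ldb3 was narrow, with control 3 just below library 3. Ttn was at 29074, 25719.6 and 16521 CPM in libraries 1 to 3 and 8233, 8707, 23127 and 4506 CPM in the controls (log2 fold change 1.09, SE 0.55, adjusted p = 0.517), highest in library 1 and lowest in control 4.

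Ttn, Neb and Xirp2, which encodes an actin-binding repeat protein, varied alike and more widely than most genes of neither class. The highest over the lowest library was 6.45 for Ttn, 6.62 for Neb and 9.88 for Xirp2, with library 1 the highest and control 4 the lowest for all 3. Within the shared cross library 3 was below control 3 in all 3, at 0.714, 0.721 and 0.569 of its level. The ratio of Ttn to Acta1 counts was 5.39, 3.53 and 2.24 in the Dmp1Cre.EfnB2f/f-labelled libraries and 1.91, 2.79, 3.87 and 1.15 in controls 1 to 4, so these 2 genes of every fibre did not keep a fixed proportion. Ttn and Neb have the longest transcripts of the 42 genes, and a part of transcript length or RNA integrity in this ratio was not tested.

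Actn3, the alpha actinin of fast fibres, was at 1079, 1974 and 1444 CPM in libraries 1 to 3 and 537, 542, 1395 and 909 CPM in the controls (log2 fold change 0.83, SE 0.39, adjusted p = 0.513). Actn2, the alpha actinin of all fibres, was at 368, 126 and 232 CPM in libraries 1 to 3 and 294, 128, 158 and 94.2 CPM in the controls (log2 fold change 0.52, SE 0.44, adjusted p = 0.620). Actn2 was low in library 2 and high in control 1, as the slow genes were. Of the remaining genes of this role, Myot and Myoz1, both Z-disc proteins that bind alpha actinin or filamin, had log2 fold changes of 0.85 and 0.88, and Tcap, which caps titin, 0.67. Des, the muscle intermediate filament desmin, was at 271 to 595 CPM with a log2 fold change of 0.42. Xirp1, a relative of Xirp2, stood out by its libraries, with 146, 48.2 and 48.6 CPM in libraries 1 to 3 and 143, 34.9, 38.7 and 18.7 CPM in the controls (log2 fold change 0.46, SE 0.68, adjusted p = 0.767): library 1 and control 1 were high and the other 5 low.

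Calcium handling genes followed the same division. Ryr1, the calcium release channel of the sarcoplasmic reticulum, was at 1237, 1445 and 1099 CPM in libraries 1 to 3 and 662, 436, 1080.2 and 515 CPM in the controls (log2 fold change 0.90, SE 0.33, unadjusted p = 0.023, adjusted p = 0.511), and control 3 again lay just below library 3. Cacna1s, the voltage sensor that opens it, ranged from 149 to 381 CPM (log2 fold change 0.59, SE 0.29, adjusted p = 0.517). Pvalb, the calcium buffer parvalbumin of fast fibres, was at 757, 1533 and 1166 CPM in libraries 1 to 3 and 333, 407, 1183 and 548 CPM in the controls (log2 fold change 0.90, SE 0.45, adjusted p = 0.517), with controls 1, 2 and 4 lowest.

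The fast calcium pump Atp2a1 was at 3408, 4391 and 2949 CPM in libraries 1 to 3 and 1965, 1369.9, 3679 and 2156 CPM in the controls (log2 fold change 0.64, SE 0.36, adjusted p = 0.521), and control 3 was above libraries 1 and 3. The slow pump Atp2a2, which other cells use too, was at 416, 264 and 469.8 CPM in libraries 1 to 3 and 497, 332, 240.3 and 268 CPM in the controls (log2 fold change 0.20, SE 0.31, adjusted p = 0.775). Its span of 2.07 times was the smallest of the slow genes, with library 3 and control 1 still the highest. Casq1, the calcium store protein of fast fibres, was at 244, 406 and 460.3 CPM in libraries 1 to 3 and 157, 146, 437 and 209.97 CPM in the controls (log2 fold change 0.64, SE 0.41, adjusted p = 0.538). Casq2, its slow and cardiac counterpart, was the least abundant of the 42 genes at 13.8, 6.96 and 26.7 CPM in libraries 1 to 3 and 21.2, 9.30, 7.85 and 5.60 CPM in the controls (log2 fold change 0.52, SE 0.53, adjusted p = 0.671), again highest in library 3 and control 1.

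The 5 genes of energy metabolism were those of fuel use rather than contraction. Ckm, muscle creatine kinase, was at 2101, 3877 and 2829 CPM in libraries 1 to 3 and 1446, 1177, 2307 and 1770.0 CPM in the controls (log2 fold change 0.81, SE 0.32, unadjusted p = 0.035, adjusted p = 0.511), with controls 1, 2 and 4 lowest and control 3 inside the range of the other group. Pygm, muscle glycogen phosphorylase, had a log2 fold change of 0.91, Eno3, muscle enolase, of 0.68 and Pgam2, muscle phosphoglycerate mutase, of 0.48. Mb, the oxygen carrier myoglobin of oxidative fibres, was at 593, 206 and 557 CPM in libraries 1 to 3 and 621, 313, 424 and 338 CPM in the controls (log2 fold change 0.09, SE 0.39, adjusted p = 0.921). Control 1 and libraries 1 and 3 were high for Mb and library 2 was the lowest of all, the opposite of its place for Ckm. Of the 100-base stretches of Mb, 30.7% also stand in another gene model.

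A fast to slow ratio is taken within a library and is not scaled by how much muscle RNA that library holds. For each of 10 pairs the log2 ratio of counts per kilobase was taken, 9 of them of a fast gene to its slow counterpart and the tenth of Actn3 to Actn2. All 10 pairs had their lowest ratio in control 1. The highest was in library 2 for 5 pairs and in control 3 for the other 5. The median log2 ratio over the 10 pairs was 3.91, 5.83 and 3.50 in the Dmp1Cre.EfnB2f/f-labelled libraries and 1.87, 3.22, 6.03 and 5.21 in controls 1 to 4. The groups overlapped for all 10 pairs, and the 4 controls alone spanned the whole range of the median.

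For Myh4 to Myh7 the log2 ratio was 4.44, 7.09 and 3.68 in the Dmp1Cre.EfnB2f/f-labelled libraries and 1.18, 3.66, 7.60 and 5.70 in controls 1 to 4. For Tnni2 to Tnni1 it was 5.20, 7.28 and 4.23 in libraries 1 to 3 and 2.86, 4.58, 8.73 and 6.82 in the controls. Both pairs ran from control 1 at the bottom to control 3 at the top, with library 3 far below control 3 of its own cross. Mybpc2 to Mybpc1 had a narrower range, 0.67, 2.79 and 1.52 in libraries 1 to 3 and 0.04, 0.70, 1.47 and 1.97 in the controls. Myl1 to Myl3, at 1.64, 4.76 and 1.46 in libraries 1 to 3 and -0.93, 1.94, 4.66 and 2.60 in the controls, was the 1 pair with a ratio below 0, in control 1, which held more of the slow light chain per length.

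**Figure D4:**
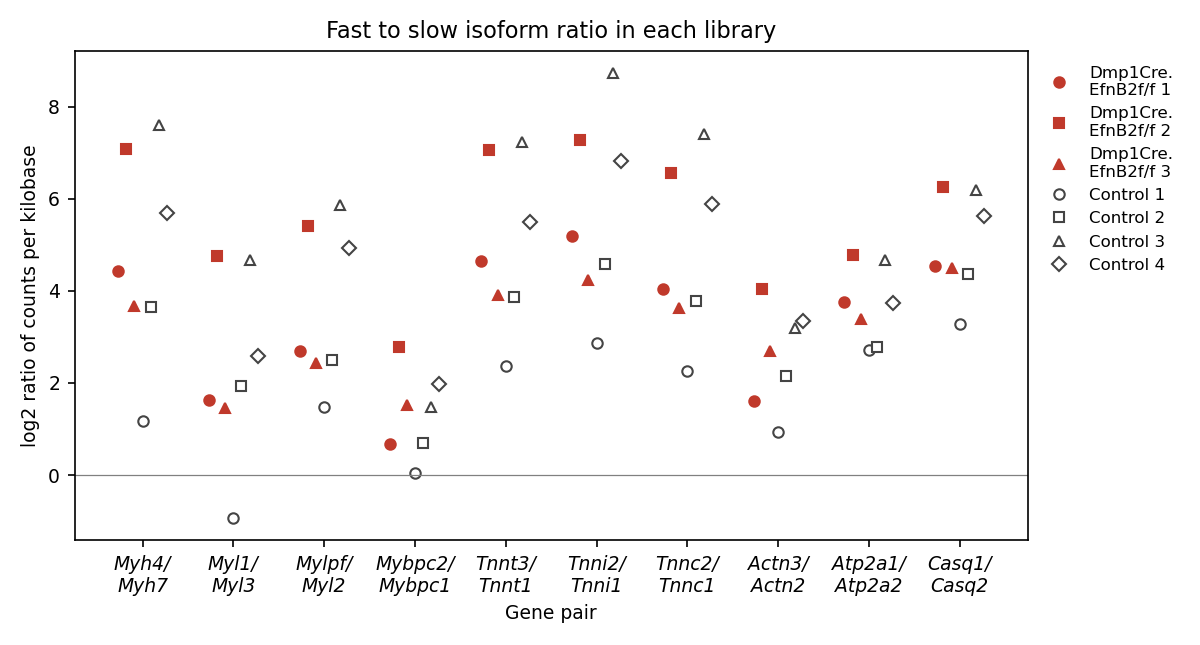
Log2 ratio of counts per kilobase (vertical axis) for 10 gene pairs, fast over slow isoform or, for Actn3 and Actn2, fast over common isoform. Filled red marks are the 3 Dmp1Cre.EfnB2f/f-labelled libraries and open marks are controls 1 to 4. Control 1 is the lowest in all 10 pairs, and library 2 or control 3 is the highest in each.

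Other genes of muscle were counted from lists that do not hold the 42 genes. Over all genes tested, 4.63% were higher and 5.03% were lower at an unadjusted p under 0.05. Of 35 other sarcomere, Z-disc and costamere genes, 34 had a log2 fold change above 0, 12 had an unadjusted p under 0.05 in that direction and 0 the other way, and the median was 0.73. The lowest p was for Sgca, a sarcoglycan of the muscle membrane, at 30.4, 33.6 and 31.4 CPM in libraries 1 to 3 and 20.4, 13.1, 22.9 and 16.4 CPM in the controls (log2 fold change 0.80, SE 0.21, unadjusted p = 0.004, adjusted p = 0.511), a gene whose groups did not overlap. Of 20 excitation-contraction coupling genes tested, 8 were higher at that p and 0 lower, with a median of 0.72. Of 20 further genes of muscle energy metabolism, 6 were higher and 0 lower, with a median of 0.67. None of these passed the adjusted threshold in the edgeR test.

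A pair of genes known from slow fibres or their calcium pump is named from these lists after their values were seen. Myoz2, the slow relative of Myoz1, was at 64.1, 13.8 and 65.2 CPM in libraries 1 to 3 and 59.1, 30.9, 16.3 and 9.02 CPM in the controls (log2 fold change 0.73, SE 0.67, adjusted p = 0.642). Sln, sarcolipin, a small regulator of the calcium pump, was at 0.445, 1.21 and 4.59 CPM in libraries 1 to 3 and 10.4, 5.53, 0.234 and 0.217 CPM in the controls (log2 fold change -0.98, SE 1.23, adjusted p = 0.725). Both were higher in control 1 and library 3 than in controls 3 and 4, where Sln had only 4 counts in each.

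Myogenic factors were present at low levels. Of 10 genes of this list tested, 4 were higher at an unadjusted p under 0.05 and 0 lower, beside 4.63% and 5.03% of all genes tested, with a median log2 fold change of 0.68. Six4, a homeobox factor of muscle, was at 27.4, 19.4 and 18.3 CPM in libraries 1 to 3 and 12.5, 11.4, 12.1 and 4.73 CPM in the controls (log2 fold change 1.09, SE 0.33, unadjusted p = 0.0095, adjusted p = 0.511), and Myf6, the factor of mature fibres, at 20.5, 22.5 and 13.2 CPM in libraries 1 to 3 and 8.96, 7.36, 16.9 and 5.11 CPM in the controls (log2 fold change 0.97, SE 0.39, unadjusted p = 0.035, adjusted p = 0.511). Pax7, the marker of satellite cells, was at 0.834, 0.823 and 1.58 CPM in libraries 1 to 3 and 0.725, 0.456, 0.703 and 0.38 CPM in the controls (log2 fold change 0.92, SE 0.39, unadjusted p = 0.042, adjusted p = 0.511). Pax7 was named after its values were seen. The groups of Pax7 did not overlap, beside 5.05% of all genes tested, and its counts were 7 to 30 per library. Of the 10 genes, 9 had a log2 fold change above 0. Cdh15 was below 0 (log2 fold change -0.36, SE 0.41, adjusted p = 0.694, edgeR). Sdc4 (0.03, SE 0.29) and Chodl (0.41, SE 0.65) differed less than Pax7, and these genes too were named after their values were seen. Myf5, Pax3 and Mymk were below the filter.

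The 10 genes outside the 42 whose log2 CPM ran most closely with the summed level of the 42 over the 7 libraries had Pearson correlations from 0.985 to 0.991. They were Calr3, Srl, Dnajc27, Mypn, Myom2, Fbp2, Art1, Zfyve9, Fsd2 and Hrasls. The points share libraries and their depth, and 7 libraries are few, so the order describes these libraries only. Among the 42 genes themselves the correlation with the sum, which includes each of them, ran from -0.13 to 0.97 with a median of 0.86. Fbp2, muscle fructose bisphosphatase, was at 16.1, 29.0 and 16.7 CPM in libraries 1 to 3 and 3.99, 4.56, 18.8 and 3.86 CPM in the controls, which is the pattern of the fast genes.

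Markers of other cell types also stood at different levels, and their part in the results above was not tested. All 8 erythroid genes had a log2 fold change below 0, 6 of them at an unadjusted p under 0.05, beside 5.03% of all genes tested that were lower at that p, and their summed level was 9019 to 17615 CPM in the Dmp1Cre.EfnB2f/f-labelled libraries and 19994 to 56559 CPM in the controls. For 8 neutrophil genes the sums were 12095 to 15109 CPM against 17269 to 20522 CPM, with all 8 below 0 and 2 at that p. Control 3 lay on the side of the controls in both sums, at 22651 and 17269 CPM, although its muscle genes were at the level of the other group. Control 1, where the fast to slow ratio was lowest, had the highest sum of 10 tendon and connective tissue genes, 1430.1 CPM against 239 to 507 CPM in the other 6 libraries. It also had the highest sum of osteocyte and osteoblast genes, most of it Col1a1 at 38291 CPM. Of 9 smooth muscle genes tested, 2 were higher at an unadjusted p under 0.05 (Lmod1 and Myh11), as were 3 of 8 endothelial genes, 2 of 8 Schwann cell genes and 1 of 8 B cell genes, beside 4.63% of all genes tested. No gene of the tendon, adipocyte, osteoclast, or osteocyte and osteoblast lists had an unadjusted p under 0.05, and over all 16 lists 0 genes passed the adjusted threshold in the edgeR test. DESeq2 called 1 gene of these lists, beside 72 of all 15098 genes tested. The limma pipeline with quality weights called 76, a count not split by direction, beside 2246 of all genes in either direction.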

How the data were processed

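RNA from 7 flushed femora was sequenced as paired-end reads by the authors, who mapped them to mm10 with Rsubread and deposited featureCounts counts per gene, 1 file per library, made with the built-in annotation. Per the labels, bcl2fastq 2.17.1.14 was used. Whether counting used strand is not given in the sources used here. The 42 genes and all lists were chosen with earlier results of these data known, and the lists came from general knowledge of marker genes. Genes with 0.65 CPM in at least 3 libraries were kept (16302 genes), and 1204 immunoglobulin, ribosomal RNA, predicted, pseudo, Y-linked and unnamed genes were left out, as the study's methods describe, which left 15098 genes.

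Genotypes were compared by edgeR 4.0.16 in R 4.3.3 (TMM, robust quasi-likelihood test, two-sided, Benjamini-Hochberg over all 15098 genes, threshold 0.05), with SEs from the same fit. CPM values are counts relative to the counts of all genes tested in the library, scaled by TMM. Shares are percentages of all deposited counts. DESeq2 1.42.0, limma 3.58.1 (prior count 2, quantile normalization, with and without quality weights), other scalings, no filter, a replicate block, a parent cross block and each library left out were the alternatives. The study collected the bones on 2 days and blocked on the day. On 1 day it took 2 samples of the floxed genotype and 3 controls, and on the other 1 of each. The labels do not say which library came from which day, so no fit here has that term. Whether library 3 and control 3, which share a cross, also share a day is not known, so their comparison may also be between days. P-values measure the spread between these libraries, and intervals were not given for shares. Libraries 1 and 2 of each genotype share a cross, and the main fit took all 7 libraries as independent. Part of that spread is therefore between mice of 1 cross. Fast to slow ratios used counts divided by the gene length in the files. Correlations used log2(CPM + 0.5). All 42 genes are named; of other lists at most 3 genes by lowest p, with all of the atrophy ligases and any exception stated beside it. Sequence shared between genes was counted as 100-base stretches of GENCODE M21 transcripts, 1 per gene.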

Additional observations from a re-analysis of the deposited data

Results flagged for a closer look

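Among 56 results for the 4 controls, 5 held a library that stood apart from the other 3 by Dixon's test at its critical value for 4 samples, where chance sets apart about 2.8. In 4 of them this was control 3, and its gap to the nearest control as a share of the whole range was 0.968 for Myh1, 0.879 for Tnnc2, 0.852 for Tnni2 and 0.863 for the share of counts of the fast genes. The share of counts of the fast genes was 2.54% in control 3 and 0.906%, 1.13% and 0.974% in controls 1, 2 and 4. The fifth was Xirp1, where control 1 stood apart with a gap of 0.839.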

How the results depend on the processing

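The edgeR fit called 0 genes at an adjusted p of 0.05. DESeq2 called 72, with 20 of the 42 genes at an unadjusted p under 0.05, beside 1895 of the 15098 genes tested. It called 1 gene of the other lists, an alternative that was added after seeing the data for those lists. The limma pipeline with quality weights called 2246 genes, 22 of the 42 and 76 genes of the other lists. It had 28 of the 42 at an unadjusted p under 0.05, beside 4962 of the 15098 genes. Without weights it had 23 at that p, beside 1603 of the 15098 genes. Library size scaling, TMM without the 42 genes, no filter and all gene classes kept 13 to 16 of the 42 genes at that p and called 0. Over all genes tested under these settings, 1415 to 1800 were at that p. With weights the slow median was -0.20, and Atp2a2 (-0.006), Casq2 (-0.20), Mb (-0.38), Myh2 (-0.19), Myl2 (-0.32), Myl3 (-0.29), Tnnc1 (-0.21), Tnni1 (-0.045) and Tnnt1 (-0.53) turned below 0.

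With the parent cross as a block, which rests on library 3 against control 3, 6 of the 42 genes had an unadjusted p under 0.05. Over all 15098 genes 308 did. The median log2 fold change was 0.14 for the 42 genes, 0.091 for the fast and 3.46 for the slow genes. Atp2a1 (-0.32), Mybpc1 (-0.049), Mybpc2 (-0.0019), Myh1 (-0.84), Myot (-0.087), Neb (-0.47), Pvalb (-0.020), Ttn (-0.49) and Xirp2 (-0.81) turned below 0. The replicate block over libraries 1 to 3 of each genotype called 1 gene in all and gave Mb -0.093. It left 8 of the 42 at that p, beside 579 of the 15098 genes. Same-numbered libraries did not deviate together (correlations -0.14, 0.063 and -0.42), so the numbers do not pair them.

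With 1 library left out at a time, 0 to 2 genes of the series and 0 of the 42 were called, and 0 to 28 of the 42 had an unadjusted p under 0.05. The median log2 fold change was 0.57 to 0.95 for the 42 genes, 0.67 to 1.18 for the fast and -0.09 to 1.58 for the slow genes, and the share of counts was 3.39 to 4.91 percentage points higher in the Dmp1Cre.EfnB2f/f-labelled libraries. The median difference in log2 fast to slow ratio, 0.43 over all libraries, ran from -0.46 to 0.79, an alternative added after seeing the data. Log2 fold changes that crossed 0 ranged from -0.085 to 1.06 for Casq2, -0.15 to 0.45 for Mb, -0.027 to 0.81 for Myh1, -0.19 to 1.80 for Myh7, -0.092 to 1.58 for Myl2, -0.077 to 1.71 for Myl3, -0.11 to 1.68 for Tnnc1, -0.55 to 1.72 for Tnni1, -0.20 to 1.34 for Tnnt1 and -0.28 to 1.39 for Xirp1. Of 294 such values 279 kept their direction, and of 378 under the other settings 359 did. The cause of these shifts was not tested.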

Other observations

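Genes tied to muscle wasting and fasting varied widely in these bones. The study's methods state that the mice were fasted before the bones were collected, and a part of fasting in these levels was not tested. Fbxo32 and Trim63, the ubiquitin ligases of muscle atrophy, are 2 genes of a list of their own. The study, with the day of collection in its model, listed both among its top differentially expressed genes, as up-regulated. No fit here has the day term. Neither gene passed the adjusted threshold in the edgeR test or in DESeq2 here (adjusted p = 0.283 for Fbxo32 and 0.252 for Trim63). The limma pipeline with quality weights called both higher (adjusted p = 0.043 and 0.045), beside 7.49% of all genes tested. Run unweighted, the same pipeline called neither (adjusted p = 0.474 for Fbxo32 and 0.482 for Trim63). Both genes turned below 0 in the fit blocked by cross, which rests on library 3 against control 3. Their log2 fold changes there were -1.41 for Fbxo32 and -1.45 for Trim63. Fbxo32 was at 622, 765 and 56.9 CPM in Dmp1Cre.EfnB2f/f-labelled libraries 1, 2 and 3, 109, 99.99, 152 and 29.1 CPM in the 4 controls (log2 fold change 2.30, SE 0.78, unadjusted p = 0.017, adjusted p = 0.511). Trim63 was at 576, 937 and 48.02 CPM in libraries 1 to 3 and 104, 99.4, 131 and 27.4 CPM in the controls (log2 fold change 2.52, SE 0.83, unadjusted p = 0.015, adjusted p = 0.511). Libraries 1 and 2 from cross 76x78 were high for both, while library 3 lay below controls 1, 2 and 3. Per 1000 counts of the 42 muscle genes, Fbxo32 had 7.98, 8.40 and 0.817 counts in libraries 1, 2 and 3 and 3.20, 3.14, 2.10 and 1.01 in controls 1 to 4, so the ratio to other muscle transcripts differed between the libraries as well. Pdk4, the kinase that turns muscle from glucose to fat, was picked out after its values were seen, at 1579.5, 1166 and 36.4 CPM in libraries 1 to 3 and 406, 239.8, 675 and 56.1 CPM in the controls (log2 fold change 1.43, SE 1.04, adjusted p = 0.574), with libraries 1 and 2 highest and library 3 lowest.

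Sarcomere isoforms of the embryo, the newborn and the heart were mostly scarce. Of 8 tested, 2 were higher at an unadjusted p under 0.05 and 0 lower, beside 4.63% and 5.03% of all genes tested, with a median log2 fold change of 0.65. Actc1, cardiac alpha actin, was at 31.4, 209 and 111 CPM in libraries 1 to 3 and 10.1, 42.5, 52.6 and 29.7 CPM in the controls (log2 fold change 1.80, SE 0.65, unadjusted p = 0.023, adjusted p = 0.511), highest in library 2. Myh13, a myosin heavy chain known from extraocular muscle, was at 51.1, 96.6 and 51.4 CPM in libraries 1 to 3 and 15.6, 21.6, 52.99 and 18.5 CPM in the controls (log2 fold change 1.29, SE 0.44, unadjusted p = 0.018, adjusted p = 0.511). Myh6, the cardiac heavy chain, was at 79.4, 24.9 and 147 CPM in libraries 1 to 3 and 74.99, 47.9, 5.09 and 9.62 CPM in the controls, lowest in control 3 like Myh7. Myl7 had 0 counts in every library, and Tnnt2, Nppa and Nppb were below the filter.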
